A study of Rattus norvegicus with 18 samples.

Results

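The mural cells of brain vessels were followed through 10 marker genes in 18 RNA-seq libraries of rat brain. They are Vtn, Pdgfrb, Rgs5, Abcc9, Kcnj8 and Notch3, used as pericyte genes, and Acta2, Tagln, Myh11 and Cnn1, used as genes of vascular smooth muscle. The 10 were given by name and matched to gene symbols in the count table, where each had 1 row among the 34873 genes listed. All 10 passed the filter on low counts, with 8 to 1799 counts per gene and library. The libraries form 3 groups of 6, all from brain of Rattus norvegicus. NC libraries came from wild-type rats with no treatment given. CO libraries came from wild-type rats that inhaled carbon monoxide (CO), and CLCF1 libraries from rats that also inhaled CO and carry a Clcf1 knock-down as their genotype. The design text describes CO at 1000 ppm for 40 min followed by 3000 ppm for 20 min, with carboxyhemoglobin above 60%. It also describes lentivirus that lowers or raises Clcf1 in bone marrow-derived macrophages, and infusion of macrophages into rats after liposome depletion. Whether NC and CO rats were depleted and infused too is not said, nor are strain, sex, age, brain region or time after exposure, so the CLCF1 group may differ from CO in more than the knock-down.

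Mural cells wrap the endothelial tube of a vessel. Pericytes sit on capillaries inside the basement membrane, are recruited by endothelial PDGF-B acting on the receptor encoded by Pdgfrb, and help to keep the blood-brain barrier closed. Smooth muscle cells ring arterioles and arteries, where actin and smooth muscle myosin set the vessel's diameter and thereby local blood flow. Transcription of the contractile genes depends largely on serum response factor and its coactivator myocardin, which act at a DNA element called the CArG box. In bulk tissue, fewer mural cells, less RNA per mural cell and a changed share of other cells cannot be told apart.

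Library totals ran from 15.1 to 20.3 M counts. The target of the knock-down, Clcf1, had 1 to 7 counts per NC library, 80 to 118 per CO library and 0 to 3 per CLCF1 library. Separate animals are not named in the labels, and p-values therefore cover the spread between libraries only, which may be technical. Within every group, libraries 3 to 6 stood apart from libraries 1 and 2. Summed over the groups, there were 42660 cases of a gene without a count in both library 1 and library 2, and in 0 of them did library 3, 4, 5 or 6 of that group have a count. Library 1 or 2 of another group had a count in 2.90% to 8.92% of such cases. Tests over 6 libraries a group treat all of them as independent, which this pattern of zeros puts in doubt. If libraries 3 to 6 are not independent of libraries 1 and 2, the p-values over 6 libraries are too small. The value of each mural gene in each comparison is therefore also given for libraries 1 and 2 alone. Levels are in CPM, counts per M after TMM scaling, with the SD of 6 libraries behind ±, and fold changes are log2 with their standard error there. A gene passed where its p from the quasi-likelihood test of edgeR, adjusted by Benjamini-Hochberg over the 16581 genes tested, was under 0.05.

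In untreated brain the 10 genes fell into a high and a low tier when set per kilobase of gene length. The high tier was Tagln at 47.5 ± 7.83 CPM per kb, Vtn at 40.6 ± 11.9, Rgs5 at 32.4 ± 9.62 and Acta2 at 19.6 ± 2.53 (SD, n = 6 each). The next gene, Pdgfrb, stood at 5.76 ± 1.29 CPM per kb, and its highest NC library lay below the lowest NC library of Acta2. Myh11 at 4.37 ± 2.04, Notch3 at 2.16 ± 0.840, Kcnj8 at 1.39 ± 0.754, Abcc9 at 1.34 ± 0.441 and Cnn1 at 1.18 ± 0.256 CPM per kb followed. Between Acta2 and Pdgfrb the libraries did not overlap, and in every other step of this order the neighbours did. Tagln led in CO with 29.7 ± 8.99 CPM per kb and Vtn led in CLCF1 with 33.3 ± 11.3, and Cnn1 was the lowest in all 3 groups. All 10 genes had counts in all 18 libraries, and summed neuronal markers stood at 5064 to 6955 CPM.

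**Figure D1:**
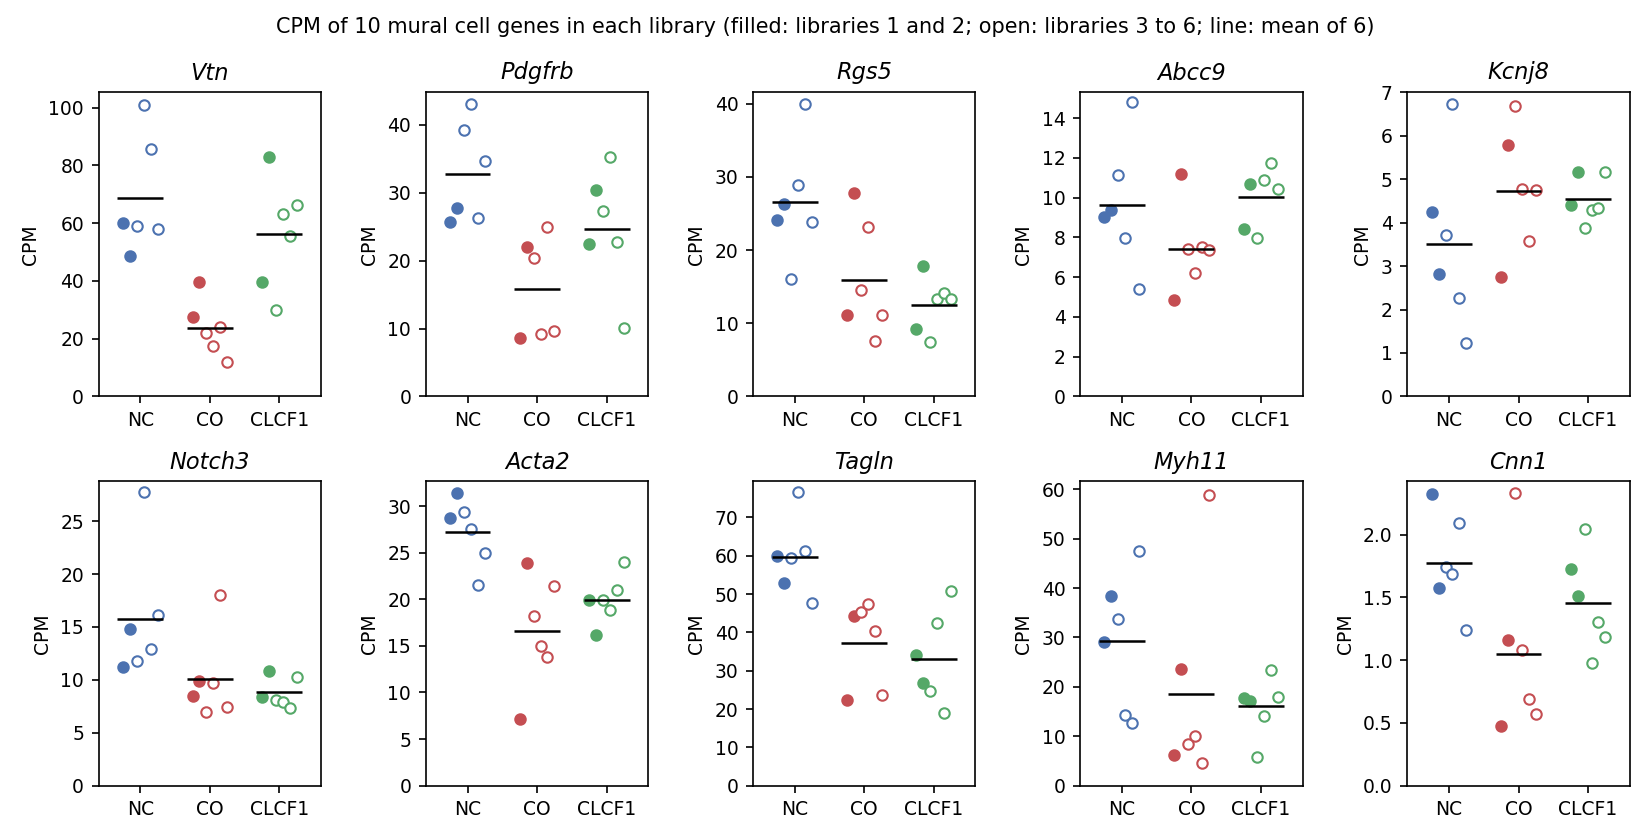
CPM (y axis, from 0, a separate scale in each panel) of the 10 mural cell genes in the NC, CO and CLCF1 groups (x axis). Each point is 1 library, filled for libraries 1 and 2 and open for libraries 3 to 6, and the line is the mean of 6. For Vtn, Pdgfrb and Tagln every CO point lies below every NC point, though for Tagln the nearest points are almost level. For Myh11, 1 CO library stands far above the rest.

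CO against NC shows brain after CO inhalation beside untreated brain. Vtn, Pdgfrb and Acta2 RNA was lower in CO, and 9 of the 10 genes had a log2 fold change below 0. The exception was Kcnj8. The median log2 fold change of the 10 genes was -0.70, against 0.01 over all genes tested, of which 49.3% were below 0. By edgeR 3 of 10 fell, 30.0% of them, where 6.40% of all genes tested fell and 12.7% changed in either direction. In the other direction 0 of 10 rose by edgeR, by DESeq2, by limma-voom or at an unadjusted p under 0.05, where 6.32% of all genes tested rose.

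Vtn encodes vitronectin, an adhesive protein of plasma and matrix that brain pericytes make (chromosome 10, 65767053 to 65771038, as the count table gives it without naming a build). Its NC libraries ran from 48.5 to 101 CPM with a median of 59.6, and its CO libraries from 12.1 to 39.8 with a median of 23.0. The groups did not overlap, and CO library 2 was the highest of its group and NC library 2 the lowest of its own. Means were 68.7 ± 20.1 CPM in NC and 23.8 ± 9.49 in CO, 2.89-fold lower (log2 fold change -1.53 ± 0.27, edgeR adjusted p = 0.00210). It passed without each of the 18 libraries in turn. In libraries 1 and 2 alone the log2 fold change was smaller, -0.71 ± 0.35 (edgeR adjusted p = 0.999).

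Pdgfrb encodes the PDGF receptor beta that draws pericytes to vessels (chromosome 18, 56364620 to 56406381). Its NC libraries ran from 25.6 to 43.1 CPM with a median of 31.2, and its CO libraries from 8.67 to 25.0 with a median of 15.01. Here too the groups did not overlap, but the highest CO and the lowest NC library lay close together. CO was 2.07-fold lower (log2 fold change -1.05 ± 0.30, edgeR adjusted p = 0.0276, lower in 6 of 6 libraries). Leaving out NC library 3 or 4, or CO library 1, 4 or 6, each ended the call (edgeR adjusted p 0.0523 to 0.0577). Libraries 1 and 2 alone gave -0.81 ± 0.41 (edgeR adjusted p = 0.999).

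The other pericyte genes did not pass. Rgs5, which encodes a brake on G protein signalling and marks pericytes (chromosome 13, 87966758 to 88003035), had a median of 25.2 CPM in NC and 12.9 in CO. Its groups overlapped, with CO libraries 2 and 4, at 27.8 and 23.1 CPM, within the NC range of 16.1 to 40.0 (log2 fold change -0.74 ± 0.29, edgeR adjusted p = 0.0964). Without CO library 2 it was -0.97 and passed (edgeR adjusted p = 0.0310). Notch3, the Notch receptor of mural cells, whose human gene is mutated in the inherited small-vessel disease CADASIL (chromosome 7, 14138495 to 14189688), had medians of 13.9 and 9.11 CPM. CO library 5 stood at 18.01 CPM, while the other CO libraries lay between 6.997 and 9.86, below all NC libraries. With it the log2 fold change was -0.64 ± 0.24 (edgeR adjusted p = 0.0849), and without it -0.89 (edgeR adjusted p = 0.0151). NC library 4, at 27.7 CPM, stood apart as well, on the side that enlarges the fall. Here, for Rgs5, and for Myh11 and Cnn1 below, the library left out is the highest of CO, picked by its value. Leaving it out can only deepen the fall, so these passes are not counted as calls.

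Acta2 encodes smooth muscle alpha-actin, the thin-filament actin of the contractile apparatus (chromosome 1, 252537615 to 252550394). Reads can be shared between actin genes, whose coding sequences are nearly identical, so its values are uncertain. Its NC libraries ran from 21.5 to 31.4 CPM with a median of 28.1, and its CO libraries from 7.12 to 23.9 with a median of 16.6. CO library 2 alone reached into the NC range. Means were 27.2 ± 3.52 CPM in NC and 16.6 ± 6.00 in CO, 1.65-fold lower (log2 fold change -0.72 ± 0.21, edgeR adjusted p = 0.0281, below the NC median in 6 of 6 libraries). It no longer passed when NC library 1, 2 or 3 or CO library 4 or 5 was left out (edgeR adjusted p 0.0506 to 0.0566), nor in a fit of the NC and CO libraries only (0.0622). The value in libraries 1 and 2 alone was -0.97 ± 0.49 (edgeR adjusted p = 0.999).

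Tagln encodes transgelin, an actin-binding protein of smooth muscle (chromosome 8, 50222896 to 50231357). Its NC libraries ran from 47.6 to 76.6 CPM and its CO libraries from 22.5 to 47.5, with medians of 59.7 and 42.3. The groups did not overlap, but only just, with the highest CO library at 47.54 CPM and the lowest NC library at 47.57. A slightly different scaling could reverse that order. The gene just missed the threshold (log2 fold change -0.68 ± 0.23, edgeR adjusted p = 0.0592). DESeq2 and limma-voom called it, at adjusted p 0.0304 and 0.0325. Vtn, Pdgfrb and Tagln were thus the 3 of 10 genes whose CO libraries all lay below all NC libraries, as 3.20% of all genes tested did, and 0 of 10 lay above, as 3.15% did.

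Myh11 encodes smooth muscle myosin heavy chain, the motor of contraction (chromosome 10, 764421 to 859184). In CO, 5 libraries stood between 4.53 and 23.6 CPM and library 6 at 58.9 CPM, the highest value of the gene in any library. NC libraries ran from 12.7 to 47.4 CPM with a median of 31.4, against 9.28 CPM as the CO median (log2 fold change -0.65 ± 0.52, edgeR adjusted p = 0.431). Without that library it was -1.47 and passed (edgeR adjusted p = 0.0380). Libraries 1 and 2 alone gave -1.19 ± 0.53 (edgeR adjusted p = 0.999). Cnn1 encodes calponin, a filament-binding regulator of smooth muscle contraction (chromosome 8, 23113048 to 23121761), and was the scarcest of the 10, with 8 to 37 counts per CO library. Its medians were 1.71 CPM in NC and 0.887 in CO, and CO library 3, at 2.33 CPM, stood above every NC library (log2 fold change -0.75 ± 0.34, edgeR adjusted p = 0.147). Without it the value was -1.15 and passed (edgeR adjusted p = 0.0217).

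Kcnj8 and Abcc9 encode the pore and the regulatory subunit of the vascular ATP-sensitive potassium channel, which opens when ATP falls and relaxes the vessel. Their genes are neighbours in the count table's coordinates, at 176782498 to 176789304 and 176805431 to 176922424 on chromosome 4, with 16126 bases between them. Kcnj8 ran from 1.24 to 6.74 CPM in NC and from 2.75 to 6.68 in CO, so the groups overlapped in full (log2 fold change 0.43 ± 0.30, edgeR adjusted p = 0.362). Abcc9 ran from 5.40 to 14.8 CPM in NC and from 4.84 to 11.2 in CO, and did not pass either (log2 fold change -0.37 ± 0.22, edgeR adjusted p = 0.268). Per length, the median ratio of Kcnj8 to Abcc9 was 0.901 in NC, 1.73 after CO alone and 1.38 in CLCF1. On the log2 scale the means differed by 0.91 between CO and NC (two-sided exact permutation p = 0.0368), by -0.47 between CLCF1 and CO (exact permutation p = 0.0195) and by 0.44 between CLCF1 and NC (exact permutation p = 0.247). Adjusted over 12 ratio comparisons, chosen after values were seen, these were 0.221, 0.221 and 0.423, so none passed. Libraries 1 and 2 alone gave 0.53, -0.11 and 0.42. Kcnj11 and Abcc8, the pore and regulatory subunits of the related channel of neurons and beta cells, both rose in CO, by 0.58 ± 0.14 and 0.44 ± 0.12 (edgeR adjusted p = 0.0145 and 0.0197), and by 0.56 and 0.36 in libraries 1 and 2 alone, where neither passed.

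**Figure D2:**
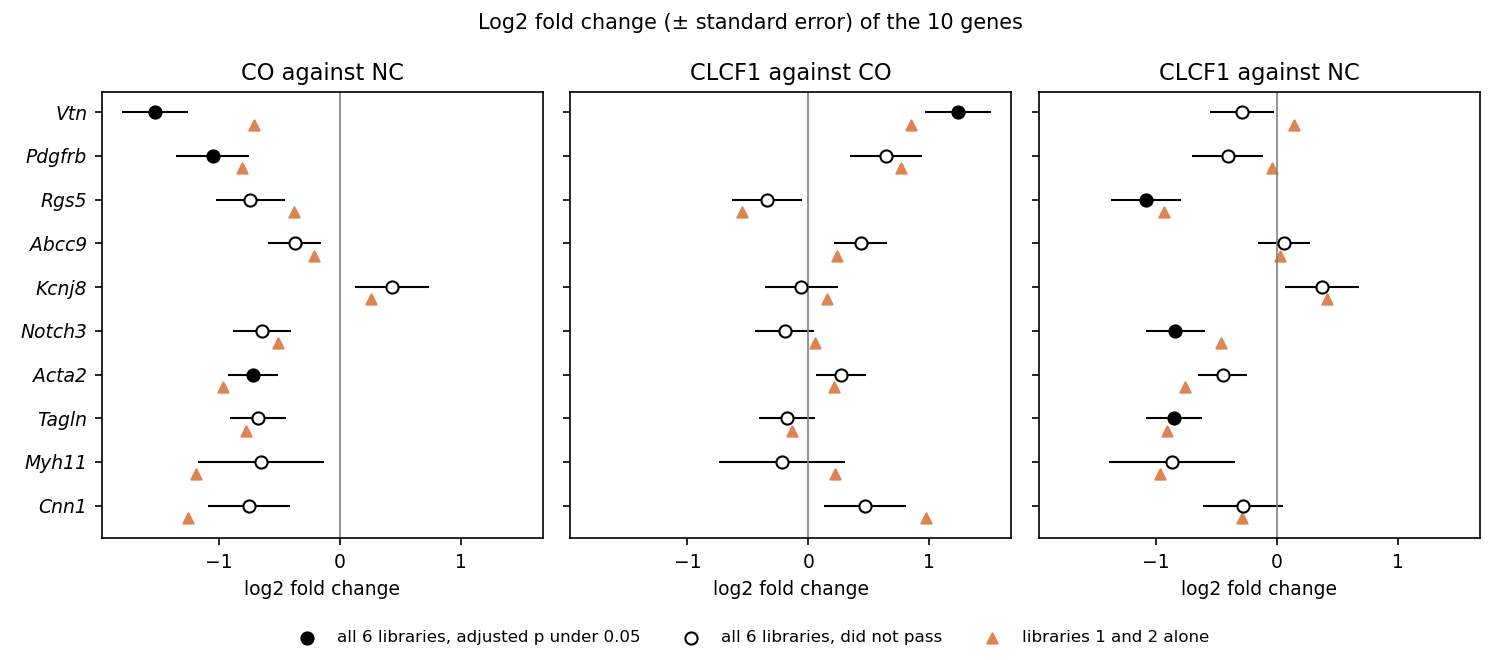
Log2 fold change (x axis) of each of the 10 genes (y axis) in the 3 comparisons, as circles with bars of 1 standard error for the fit of all libraries. Filled circles passed at an adjusted p under 0.05, open ones did not, and triangles give libraries 1 and 2 alone. Between CO and NC, 9 of 10 circles and 9 of 10 triangles lie left of 0, and Kcnj8 lies right of it.

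With libraries 1 and 2 alone, where 4 of 16820 genes, or 0.0238%, were called between CO and NC, 0 of 10 mural genes passed by edgeR. There 1 of 10, Tagln, was lower at an unadjusted p under 0.05, and the median log2 fold change was -0.74. Members not given above were at -0.38 for Rgs5, -0.51 for Notch3, -0.77 for Tagln, -1.26 for Cnn1, -0.21 for Abcc9 and 0.26 for Kcnj8. In those 4 libraries, both CO libraries lay below both NC libraries for 7 of 10 genes, as for 17.2% of all genes tested, and above them for 0 of 10, as for 17.0%. The 7 were Vtn, Pdgfrb, Notch3, Acta2, Tagln, Myh11 and Cnn1.

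RefSeq promoter windows, from 250 bases before to 50 bases after the gene start on build GRCr8, were found for 7 of the 10 genes. They are shown for Vtn and Acta2, the members called in CO for which a window was found. Capitals mark letters that matched a searched motif on either strand.

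Vtn: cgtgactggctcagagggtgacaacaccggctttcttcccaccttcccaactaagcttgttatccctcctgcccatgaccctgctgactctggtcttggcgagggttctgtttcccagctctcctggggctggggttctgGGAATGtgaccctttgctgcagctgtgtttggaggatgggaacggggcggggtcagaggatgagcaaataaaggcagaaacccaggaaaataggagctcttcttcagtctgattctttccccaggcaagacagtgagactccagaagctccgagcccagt
Acta2: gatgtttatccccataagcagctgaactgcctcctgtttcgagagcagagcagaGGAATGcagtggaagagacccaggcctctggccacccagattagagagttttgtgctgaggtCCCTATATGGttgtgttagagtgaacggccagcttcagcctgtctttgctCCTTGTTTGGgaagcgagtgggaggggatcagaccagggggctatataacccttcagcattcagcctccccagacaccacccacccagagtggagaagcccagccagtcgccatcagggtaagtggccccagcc

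The Vtn window lies at chr10:63892532-63892831 on the plus strand and the Acta2 window at chr1:241172454-241172753 on the minus strand. The Acta2 window holds a pair of CArG boxes, CCCTATATGG and CCTTGTTTGG, each with 1 C or G among its inner letters, at 134 and 84 bases before the start. Such a near-match is in 8.10% of 33469 windows of this length, and a CArG box with only A and T inside is in 1.64%. None of the 7 windows held the latter, and only the Acta2 window the former. CATTCC, a core letter run of the TEAD site, was found reversed as GGAATG in the Vtn and Acta2 windows, as in 14.2% of all windows. ACGTG, the core letters bound by hypoxia-inducible factor, was in the Notch3 and Cnn1 windows, as in 19.3% of all. The windows of Rgs5, Abcc9 and Kcnj8 matched none of these. A match describes letters only, and no motif overlapped another in the windows shown.

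The wider mural lists showed where else RNA was lower in CO. Of 17 other pericyte genes tested (20 listed), 6 fell and 11 did not pass, with a median log2 fold change of -0.57 and 15 of 17 below 0. Tbx18, a transcription factor of mural cells, fell by 2.04 ± 0.32, and Ifitm1, a membrane protein gene, fell by 1.53 ± 0.26. Ddr2, a collagen receptor, fell by 2.41 ± 0.50 and the transcription factor gene Ebf1 fell by 1.89 ± 0.46 (edgeR adjusted p 0.00107 to 0.0134 for the 4). With libraries 1 and 2 alone these were -1.19, -1.40, -0.98 and -1.26. Several of these genes are also expressed by fibroblasts, whose markers were lower too, as given below.

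Of 22 other smooth muscle genes, 4 fell and 18 did not pass, with a median of -0.13 and 17 of 22 below 0. Those that fell were Tpm2, a tropomyosin gene (-0.69 ± 0.14), Casq2, a calcium store protein gene (-1.61 ± 0.37), Aoc3, a vascular amine oxidase gene (-0.93 ± 0.28), and Pln, the calcium pump regulator phospholamban (-1.33 ± 0.40; edgeR adjusted p 0.00469 to 0.0362). The values in libraries 1 and 2 alone were -0.44, -1.40, -0.48 and -1.63. The sum over this list overlapped between groups, with 542 to 700.2 CPM in NC and 463 to 613 in CO. Tpm1 alone averaged 226 CPM in both groups, of mean sums of 595 in NC and 550 in CO. The sum therefore follows Tpm1 more than the genes that fell. The sum over the 10 mural genes did not overlap, with 254 to 336 CPM in NC and 99.7 to 209 in CO. Nor did the sum over the other pericyte genes, with 183 to 243 CPM in NC and 124 to 168 in CO. Within it, Zic1, Tbx18 and Ddr2 averaged 37.2, 15.7 and 14.2 CPM in NC and 21.7, 3.82 and 2.67 in CO. Cspg4 and Mcam were level, with means of 23.4 and 36.1 CPM in NC and 23.5 and 36.5 in CO. How often sums of other genes fail to overlap was not counted. Of 7 genes of smooth muscle transcription tested, Srf, which encodes serum response factor itself, rose by 0.69 ± 0.17 (edgeR adjusted p = 0.0126, 0.87 in libraries 1 and 2 alone) and 6 did not pass.

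Partners of the mural genes moved in both directions. Pdgfb, the ligand of the Pdgfrb receptor, did not pass (0.14 ± 0.13, edgeR adjusted p = 0.507), while Pdgfc, a ligand of the sister receptor, fell by 1.37 ± 0.31 (edgeR adjusted p = 0.00832), the 1 called of 5 PDGF genes. Of 13 Notch genes, the target Hes1 rose by 1.49 ± 0.24, the targets Hes5 (-1.11 ± 0.31) and Hey2 (-1.202 ± 0.34) fell, and 10 did not pass. Of 7 relatives of Rgs5, Rgs2 and Rgs4 rose by 1.42 ± 0.27 and 0.65 ± 0.18, and 5 did not pass. Of 14 TGF-beta and angiopoietin genes, Tie1, an endothelial receptor gene, fell by 1.24 ± 0.23, Tgfb2 rose by 0.74 ± 0.23 and 12 did not pass. Of 15 vascular tone genes, the endothelin gene Edn3 fell by 2.24 ± 0.46 and 14 did not pass. In libraries 1 and 2 alone these called partners were at -0.43 for Pdgfc, 1.01 for Hes1, -1.14 for Hes5, -0.38 for Hey2, 1.19 for Rgs2, 0.79 for Rgs4, -0.77 for Tie1, 0.38 for Tgfb2 and -1.67 for Edn3. Among the vitronectin receptors, Itgb1, an integrin beta subunit gene, did not pass (-0.38 ± 0.12, edgeR adjusted p = 0.0515).

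Markers of other vessel-associated cells were measured beside these. Among 15 genes of fibroblasts and meninges, 7 fell (median -0.80, and -1.004 in libraries 1 and 2 alone) and the others did not pass. Their summed level was 1191 to 1689 CPM in NC and 359 to 1004 in CO, without overlap. Of 14 endothelial genes, 2 rose, 3 fell and 9 did not pass (median -0.29), and their sum overlapped, with 486 to 628 CPM in NC and 434 to 694 in CO. Cldn5, a tight-junction gene of endothelium, is listed with no count in any library. The reason was not tested, so its row is not read as absence of the gene's RNA. Choroid plexus markers summed to 4.33 to 151 CPM in NC and 0.756 to 38.9 in CO. Ependymal genes had 4 of 9 that fell, and pan-neuronal genes 3 of 10 that rose, with sums of 5064 to 5674 CPM in NC and 6335 to 6955 in CO. Of 10 astrocyte genes 1 fell, of 10 oligodendrocyte genes 1 rose, of 10 microglial genes 1 rose and 1 fell, and of 5 genes of striated muscle 1 rose. List medians for all libraries and for libraries 1 and 2 alone were -0.29 and -0.30 for endothelial, -1.29 and -1.19 for choroid plexus, -1.54 and -1.30 for ependymal, and 0.26 and 0.28 for pan-neuronal genes. The part of these markers in the mural result was not tested.

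**Figure D3:**
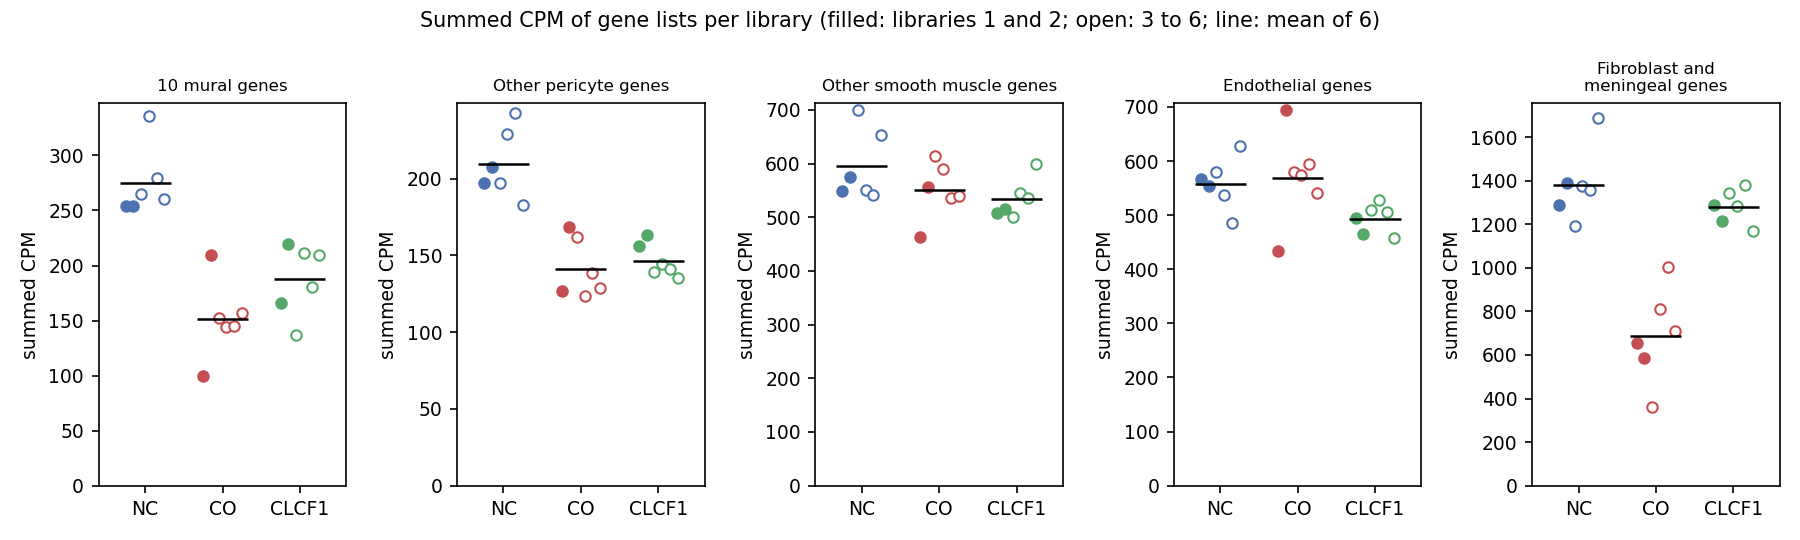
Summed CPM per library (y axis, from 0, a separate scale in each panel) of the 10 mural genes and of 4 other lists in the NC, CO and CLCF1 groups (x axis). Points are libraries, filled for 1 and 2 and open for 3 to 6, and lines are means of 6. The 10 mural genes, the other pericyte genes and the fibroblast and meningeal genes lie lower in all CO libraries than in all NC libraries. The other smooth muscle and the endothelial sums overlap.

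The comparison of CLCF1 with CO asks what accompanied the knock-down label among CO-exposed rats. Vtn was the 1 of 10 genes that passed, and it rose. That is 10.0% of the 10 genes, where 8.63% of all genes tested rose and 17.0% changed in either direction. Of the 10, 0 fell by edgeR, by DESeq2, by limma-voom or at an unadjusted p under 0.05, where 8.34% fell. The median log2 fold change of the 10 was 0.11, with 5 above and 5 below 0, where 49.8% of all genes were below. With all libraries, 0 of 10 genes had CLCF1 fully below or above CO, as 3.65% and 3.46% of all genes tested did.

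Vtn ran from 29.9 to 83.0 CPM in CLCF1 with a median of 59.4, against the CO range of 12.1 to 39.8. In CLCF1, 4 libraries lay above all CO libraries, and libraries 1 and 3, at 39.7 and 29.9 CPM, lay within the CO range. The mean was 56.2 ± 19.1 CPM, 2.36-fold that of CO (log2 fold change 1.24 ± 0.27, edgeR adjusted p = 0.00510, above the CO median in 6 of 6 libraries). The call held without each of the 18 libraries in turn, at 1.09 to 1.45. In libraries 1 and 2 alone it was 0.85 ± 0.35 (edgeR adjusted p = 0.978), and there 1 of 10 mural genes, Vtn itself, had an unadjusted p under 0.05. By edgeR 0 of 10 passed there, where 8 of 16820 genes, or 0.0476%, did. Both CLCF1 libraries lay above both CO libraries for 2 of 10 genes, Pdgfrb and Cnn1, as for 16.6% of all genes, and below for 0 of 10, as for 14%.

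Pdgfrb came next, with a CLCF1 range of 10.1 to 35.3 CPM and a median of 25.0, and 3 of 6 libraries above all CO libraries (log2 fold change 0.64 ± 0.30, edgeR adjusted p = 0.142). Abcc9 had 7.97 to 11.8 CPM in CLCF1, with 6 of 6 libraries above the CO median (0.43 ± 0.22, edgeR adjusted p = 0.182). Cnn1 stood at 0.977 to 2.05 CPM (0.47 ± 0.34, edgeR adjusted p = 0.367) and Acta2 at a median of 19.9 CPM (0.27 ± 0.20, edgeR adjusted p = 0.389). Rgs5, Notch3, Tagln, Myh11 and Kcnj8 had values of -0.34, -0.20, -0.18, -0.22 and -0.06, none larger than 1.5 standard errors. For libraries 1 and 2 alone, Pdgfrb was at 0.77, Abcc9 at 0.24, Cnn1 at 0.97, Acta2 at 0.21, Rgs5 at -0.55 and Tagln at -0.14. Myh11, Notch3 and Kcnj8 changed sign there, to 0.22, 0.05 and 0.15.

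Other genes of these cells were counted beside the 10. Of 17 other pericyte genes, 4 rose, 1 fell and 12 did not pass (median 0.67). Tbx18, Ddr2 and Higd1b, the last a hypoxia-linked gene abundant in pericytes, rose by 1.37 ± 0.31, 1.71 ± 0.49 and 0.83 ± 0.22, and Mcam, an adhesion molecule of vessels, fell by 1.01 ± 0.25 (edgeR adjusted p 0.00652 to 0.0218). For libraries 1 and 2 alone the 4 stood at 0.89, 1.25, 0.72 and -0.66. Of 22 other smooth muscle genes, Aoc3 and the phosphodiesterase gene Pde3a rose by 1.18 ± 0.28 and 1.60 ± 0.52, the secreted protein gene Crispld2 fell by 0.58 ± 0.17, and 19 did not pass. Libraries 1 and 2 alone gave 1.01, 0.80 and -0.48 for these. Srf (-1.09 ± 0.17) and Klf4 (-0.86 ± 0.23), a factor that represses contractile genes, fell (edgeR adjusted p = 0.000614 and 0.0149), while the 4 contractile members did not pass. Srf was at -0.87 and Klf4 at -1.18 in libraries 1 and 2 alone.

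Among the partners, Pdgfc rose by 1.44 ± 0.31 and 4 of 5 PDGF genes did not pass. Of 13 Notch genes 3 rose and 2 fell. The targets Hey2 (1.94 ± 0.35) and Hes5 (1.03 ± 0.31) and the receptor gene Notch2 (1.31 ± 0.37) rose, and Hes1 (-1.17 ± 0.24) and the endothelial receptor gene Notch4 (-0.79 ± 0.17) fell. Of 7 relatives of Rgs5, Rgs16 (-0.93 ± 0.25), Rgs8 (-0.61 ± 0.17) and Rgs2 (-0.86 ± 0.27) fell and Rgs3 (0.53 ± 0.18) rose. Of 14 TGF-beta and angiopoietin genes, Tie1 rose by 0.90 ± 0.23 and 13 did not pass. Of 15 vascular tone genes 1 rose, 2 fell and 12 did not pass. Edn1, the constrictor peptide endothelin-1, fell by 2.35 ± 0.34, Nos3, the endothelial nitric oxide synthase, fell by 1.05 ± 0.32, and the sphingosine phosphate receptor gene S1pr3 rose by 2.58 ± 0.61. The integrin gene Itga5, of the vitronectin receptors, fell by 1.06 ± 0.29. Of the channel relatives, Kcnj11 fell by 0.49 ± 0.14 and Abcc8 did not pass (-0.33 ± 0.12, edgeR adjusted p = 0.0538). The same genes in libraries 1 and 2 alone had Pdgfc at 1.01, Hey2 at 1.40, Hes5 at 1.22, Notch2 at 0.48, Hes1 at -0.76, Notch4 at -0.75, Rgs16 at -0.69, Rgs8 at -0.56, Rgs2 at -1.02, Rgs3 at 0.35, Tie1 at 0.16, Edn1 at -1.71, Nos3 at -1.01, S1pr3 at 1.87, Itga5 at -0.69 and Kcnj11 at -0.46.

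Beside these values, 5 of 15 genes of fibroblasts and meninges rose and 10 did not pass (median 0.67), and their sum, 1168 to 1382 CPM, lay above all CO libraries. Of 9 choroid plexus genes 7 rose, and their sum ran from 20.5 CPM in CLCF1 library 2 to 6067 CPM in library 1, against at most 38.9 in CO. In CLCF1 libraries 1 to 6, in that order, the choroid plexus sum was 6067, 20.5, 3728, 3896, 839 and 2702 CPM. Vtn in the same order stood at 39.7, 83.0, 29.9, 63.2, 55.6 and 66.1 CPM. Of 14 endothelial genes 3 rose, among them the transcription factor gene Erg (1.44 ± 0.32) and the tight-junction gene Ocln (1.27 ± 0.30). The glucose transporter gene Slc2a1 (-1.12 ± 0.17) and the lipid transporter gene Mfsd2a (-0.68 ± 0.21) fell, 9 did not pass, and the endothelial sum was 458 to 528 CPM. Of 9 ependymal genes 2 rose, of 10 pan-neuronal genes 1 rose and 3 fell, and of 10 oligodendrocyte genes 4 fell. List medians for all libraries and for libraries 1 and 2 alone were 0.67 and 0.76 for fibroblast and meningeal, 6.58 and 5.52 for choroid plexus, 0.14 and 0.048 for endothelial, and -0.57 and -0.52 for oligodendrocyte genes. The part of these markers in the Vtn result was not tested.

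The comparison of CLCF1 with NC sets the rats with both CO and the knock-down label against untreated ones. Rgs5, Tagln and Notch3 fell, 3 of 10 genes or 30.0%, where 4.84% of all genes tested fell and 9.26% changed in either direction. By edgeR, DESeq2, limma-voom and at an unadjusted p under 0.05, 0 of 10 rose, where 4.43% of all genes did. The median log2 fold change of the 10 was -0.43, with 8 of 10 below 0, against 48.6% of all genes. Vtn and Pdgfrb, which had fallen in CO, were at -0.29 ± 0.27 and -0.41 ± 0.29 and did not pass (edgeR adjusted p = 0.541 and 0.418). The comparisons share libraries, so their values are set side by side and not tested against each other.

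Rgs5 ran from 7.48 to 17.8 CPM in CLCF1 with a median of 13.3, against 16.1 to 40.0 in NC. In CLCF1, 5 libraries lay below all NC libraries, and library 2, at 17.8 CPM, was the exception. CLCF1 was 2.12-fold lower (log2 fold change -1.08 ± 0.29, edgeR adjusted p = 0.0258). Without NC library 5 or CLCF1 library 3 it did not pass (edgeR adjusted p 0.0543 to 0.0549). Libraries 1 and 2 alone gave -0.93 ± 0.46 (edgeR adjusted p = 1.000).

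Tagln ran from 19.0 to 50.8 CPM in CLCF1, with a median of 30.5, and only library 6 reached the NC range of 47.6 to 76.6 (log2 fold change -0.85 ± 0.23, edgeR adjusted p = 0.0268). Without NC library 4 or CLCF1 libraries 2, 3 or 5, each in turn, it no longer passed, at adjusted p 0.0509 to 0.0576. Notch3 ran from 7.37 to 10.9 CPM, all below the lowest NC library at 11.2 (log2 fold change -0.84 ± 0.24, edgeR adjusted p = 0.0363). It was the 1 of 10 genes without overlap here, as were 2.90% of all genes in that direction, and 0 of 10 lay above, as 2.73% did. NC library 4, at 27.7 CPM, stood far above its group, and without it the log2 fold change was -0.60 and no longer passed (edgeR adjusted p = 0.0915). The Notch3 call was also lost without NC library 6 or CLCF1 libraries 3, 4 or 5. In libraries 1 and 2 alone Tagln was at -0.91 ± 0.33 and Notch3 at -0.46 ± 0.33, and 1 of 10, Tagln, had an unadjusted p under 0.05. There 0 of 10 passed by edgeR, where 2 of 16820 genes, or 0.0119%, did. CLCF1 lay below NC without overlap for 5 of 10 genes, Rgs5, Notch3, Acta2, Tagln and Myh11, as for 11.7% of all genes, and above for 1, Kcnj8, as for 15.5%.

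The remaining members did not pass. Acta2 had a CLCF1 median of 19.9 CPM against 28.1, below the NC median in 6 of 6 libraries (-0.45 ± 0.20, edgeR adjusted p = 0.175), and Myh11 17.5 against 31.4 (-0.87 ± 0.52, edgeR adjusted p = 0.317). Cnn1 was at -0.28 ± 0.33, Abcc9 at 0.06 ± 0.22 and Kcnj8 at 0.37 ± 0.30. For libraries 1 and 2 alone, Vtn was at 0.14, Pdgfrb at -0.04, Acta2 at -0.76, Myh11 at -0.97, Cnn1 at -0.29, Abcc9 at 0.03 and Kcnj8 at 0.41. Among the other smooth muscle genes, Casq2, Crispld2 and the actin-nucleating leiomodin gene Lmod1 fell, with log2 fold changes of -1.88 ± 0.37, -0.66 ± 0.17 and -0.96 ± 0.27, and 19 of 22 did not pass. Mcam fell by 0.99 ± 0.25 as the 1 called of 17 other pericyte genes, and Klf4 fell by 0.80 ± 0.23. Libraries 1 and 2 alone gave, in this order, -1.26, -0.57, -0.73, -0.78 and -1.08. The sum over the 10 mural genes, 137 to 220 CPM in CLCF1, lay below all NC libraries. Of 15 vascular tone genes Edn1 fell by 1.86 ± 0.34 and S1pr3 rose by 2.91 ± 0.62, and of 7 RGS genes Rgs16 fell by 0.95 ± 0.25 and Rgs1 rose by 1.497 ± 0.37. Sums of fibroblast and meningeal genes overlapped between CLCF1 and NC, and 7 of 9 choroid plexus genes rose. The part of these markers was not tested.

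The 10 genes also varied inside the groups. The coefficient of variation over 6 libraries was highest in CO for 7 of 10 genes, among them Myh11 at 112%, Cnn1 at 65.0% and Acta2 at 36.2%, against 46.7%, 21.6% and 12.9% in NC. The share of all genes with their highest value in CO was not counted. For Myh11, Cnn1 and Notch3, 1 CO library stood apart from its group, and Notch3 was at 40.2% in CO against 39.0% in NC. The coefficient was highest in NC for Kcnj8, at 54.4%, and Abcc9, at 32.96%, and in CLCF1 for Tagln, at 36.1%, and none of these differences was tested. CO library 2 stood above CO library 1 for all 10 genes, by a median of 1.24 on the log2 scale, while 49.5% of all genes tested were higher in library 2. The excess was 1.91 for Myh11, 1.75 for Acta2 and 1.35 for Pdgfrb, and 0.22 for Notch3. Endothelial sums went the same way, with 434 CPM in CO library 1 and 694 in library 2, and fibroblast sums did not, with 657 and 586 CPM. Lists of cells outside the vessel wall differed as well. Oligodendrocyte sums were 10889 CPM in CO library 1 and 21637 in library 2, and microglial sums were 485 and 371 CPM. The difference between these libraries was thus not confined to vessel genes. In NC and CLCF1, 6 of 10 genes were higher in library 2, near the 54.2% and 52.0% of all genes tested that were. In CLCF1 these were the 6 pericyte genes, while the 4 contractile genes were lower. That split rests on 1 pair of libraries and on some small values, such as -0.05 for Myh11 and 0.23 for Kcnj8.

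**Figure D4:**
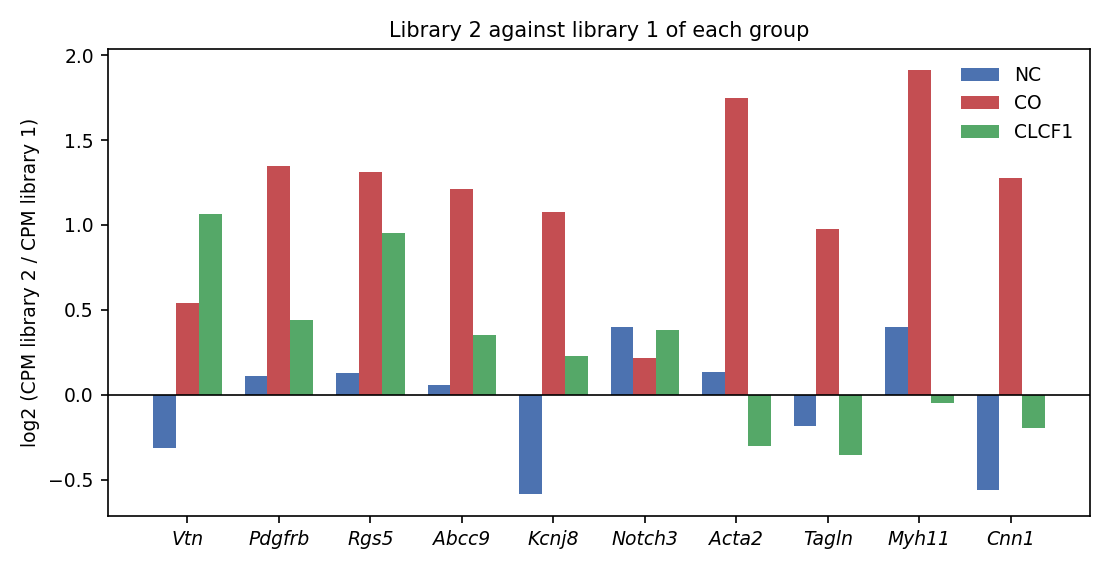
Log2 ratio of CPM in library 2 to CPM in library 1 (y axis) for each of the 10 genes (x axis) in the 3 groups, 1 bar per pair of libraries. In CO all 10 bars point up, in CLCF1 those of the 6 pericyte genes do, and in NC 6 of 10 do.

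Among libraries 3 to 6 the 10 genes did not all move together in this way. In CO library 6, Myh11 was at its highest of all 18 libraries, at 58.9 CPM, while Vtn, at 12.1 CPM, was at its lowest. As a description, the median correlation of log2 CPM over the 45 pairs of genes, after removal of group means, was 0.23 over 18 libraries and 0.04 over the 12 libraries numbered 3 to 6. Over those 12, pairs ran from -0.52 to 0.68. Medians there were 0.15 for pericyte pairs, -0.006 for mixed pairs and -0.11 for contractile pairs. Pairs of other genes were not measured. Outside the 10, 13820 genes were ranked by how closely they followed the mean of the 10 across the 18 libraries. The 6 closest were Csf1, Il1r1, Sec24d, Cilp, Zfp366 and Kif6, with correlations of 0.88, 0.82, 0.80, 0.80, 0.79 and 0.79 over 18 libraries. Over the 6 libraries numbered 1 and 2, which share group differences and depth, they were 0.90 to 0.97. Those 6 libraries are among the 18 that ranked the genes, so their values are no separate check. Among the members themselves, Acta2 followed the mean of the other 9 most closely, at 0.78, and Kcnj8 least, at -0.07.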

How the data were processed

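Members and gene lists were chosen with earlier results of these data known. The values the authors deposited are counts, raw and whole, in 1 table of all libraries; its headers name no normalization. The aligner and counter were not given in the sources used here. Per the submitters' processing notes only the mouse builds GRCm38 and mm10 are named, although the table's gene IDs are of rat, so its coordinates are printed without a build. Per the labels' protocols, libraries were made from total RNA with a SMARTER mRNA-Seq kit; strand is not stated, so antisense reads cannot be told apart. Groups and library numbers came from sample titles, and symbols and gene lengths, deposited by the authors, from the table.

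The test was edgeR 4.0.16 under R 4.3.3, with TMM scaling, filterByExpr (16581 of 34873 genes kept), 1 quasi-likelihood fit of all 18 libraries with robust estimation, and Benjamini-Hochberg adjustment. Each standard error is the log2 fold change divided by the square root of F. Depth was 15.1 to 20.3 M counts per library. Alternatives were DESeq2 1.42.0, limma-voom (limma 3.58.1), other scalings and filters, fits of subsets of libraries, leaving out each library, a replicate block and a log2 fold change limit of 1. Replicate pairs differed by more than sampling noise (chi-square per degree of freedom 43.2 to 78.6). All 10 members were named, and from each other list up to 4 genes with the smallest p in a comparison. Outside that rule, Hes5 was named for CLCF1 against CO because it too was called, and Cldn5 for its lack of counts. Tpm1, Zic1, Cspg4 and Mcam were named for their part in the list sums of CO and NC. A gene of the vitronectin list is not reported here.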

Additional observations from a re-analysis of the deposited data

Results flagged for a closer look

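In 51 sets of 6 values, 1 library stood apart from the other 5 of its group in 5 sets, by a gap of more than 0.625 of the group's range (Dixon's limit), which chance gives in about 1 of 20 sets. Notch3 stood at 27.7 CPM in NC library 4 and at 18.01 CPM in CO library 5. Myh11 stood at 58.9 CPM in CO library 6, and Cnn1 at 2.33 CPM in CO library 3. The sum over the 10 mural genes stood at 336 CPM in NC library 4. All 5 are among libraries 3 to 6.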

How the results depend on the processing

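Over 29 alternatives, Vtn kept its call in 28 for CO against NC (log2 fold change -2.01 to -0.71) and in 28 for CLCF1 against CO (0.85 to 1.501), and lost it in libraries 1 and 2 alone. Members lower in CO numbered 3, but 5 by limma-voom, 0 in libraries 1 and 2 alone, 1 in libraries 3 to 6 alone and 1 to 4 without 1 library. Members lower in CLCF1 against NC numbered 3, but 0 in libraries 1 and 2 or 3 to 6 alone, 1 with a log2 limit of 1 and 0 to 3 without 1 library. The 1 member higher in CLCF1 against CO became 0 in libraries 1 and 2 alone. Genes called numbered 2110 for CO against NC, 2814 for CLCF1 against CO and 1536 for CLCF1 against NC. In that order they became 4291, 5645 and 4292 without a filter, 4, 8 and 2 in libraries 1 and 2 alone, 918, 1436 and 736 in libraries 3 to 6 alone, and 1088, 1468 and 913 with the log2 limit; DESeq2 gave 2334 for CLCF1 against NC. Leaving out 1 library gave 1672 to 2169, 2427 to 3033 and 1219 to 1798.

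Values near 0 that changed sign, all without a call, were for CLCF1 against CO Kcnj8 (0.050 by limma-voom, 0.15 in libraries 1 and 2 alone), Myh11 (0.30, 0.22 and, with the block, 0.29) and Notch3 (0.052 in libraries 1 and 2 alone), and for CLCF1 against NC Vtn (0.14 in libraries 1 and 2 alone). Without 1 library, CLCF1 against CO ranged from -0.18 to 0.065 for Kcnj8, -0.29 to 0.033 for Notch3 and -0.44 to 0.58 for Myh11, and CLCF1 against NC from -0.080 to 0.20 for Abcc9. The causes were not tested.

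The labels tie library numbers to nothing shared, and not every same-numbered pair correlated above 0.1, so the numbers were not taken to pair the samples. Correlations of deviations were -0.0283 to 0.149 (median 0.00133) for the same number and -0.194 to 0.0454 (median -0.00174) for different numbers. The best match had the same number in 11 of 36 cases, each with 6 candidates, which is a hint from the data and not the design. With the number as a replicate block, members lower numbered 3 in CO against NC and 2 in CLCF1 against NC, where Notch3 no longer passed (edgeR adjusted p = 0.0592), Vtn was higher in CLCF1 against CO, and 1944, 2787 and 1477 genes were called. Depth limits Cnn1 most, with 8 counts in its lowest library.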
